A study of Homo sapiens with 7 samples.

Results

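Chromosome 18 held 650 of the 47017 Myc peaks that the authors listed for HT29 cells, and 47016 of that list lay on nuclear chromosomes. All peaks on the chromosome were taken. They were divided at 18 Mb (hg38) by the position of the summit, the base of highest signal, which put 260 on the short arm and 390 on the long arm. HT29 is a cell line established from a colon adenocarcinoma. Per the labels, all 7 libraries came from HT29 cells given oleic acid, a monounsaturated fatty acid, for 6 h in serum-free medium. By title, 3 of them were Myc, 3 IgG and 1 input. The labels give the Myc antibody for the IgG libraries too, and the titles were followed. The assay was CUT&RUN, in which an antibody guides a nuclease to its target on permeabilised cells and the DNA cut free is sequenced. Cells without oleic acid were not analysed here.

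The list gives 1 value per peak over the Myc libraries and none per library, so neither a spread between replicates nor a test over samples was possible. The fold of a peak is the authors' ratio of Myc signal to control level at the summit. The pileup, the number of Myc fragments over the summit, and the control level, the number expected there, were solved for from the deposited fold and p-value. Intervals cover counting error at the 95% level and nothing else, since the list holds no value per library. The fragments also carry no molecular identifiers. The smallest pileup in the list was 14.

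Myc is a transcription factor that binds DNA as a partner of MAX, most firmly at the E-box CACGTG, and is found at the promoters of many active genes. It drives genes of ribosome production, metabolism and cell division, and in colon cancer its level is raised downstream of Wnt signalling. The long arm of chromosome 18 is often lost in colon cancer. It carries SMAD2 and SMAD4, which relay TGF-β signals to the nucleus, SMAD7, which inhibits that relay, and DCC, a netrin receptor. The short arm carries TYMS, the thymidylate synthase that fluorouracil inhibits. The number of copies of each arm in these cells was not measured.

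The promoters below are those of the strongest peaks of each arm for which a promoter was listed with its start within 1 kb of a summit (ENOSF1, VAPA, RNF138, MEX3C), the strongest with a CACGTG (MYL12A, POLI and TAF4B, beside VAPA), and SMAD2 and SMAD4, the tumour suppressor genes named above. Each runs 5′ to 3′ from 250 bases before to 50 bases after the start of the gene, 300 bases in all, from RefSeq on GRCh38.p14, which has the chromosome sequences of hg38. Capitals mark the E-box CACGTG and a variant of it, written CACGCG on one strand and CGCGTG on the other. VAPA, MYL12A, POLI and TAF4B held CACGTG, while ENOSF1, RNF138, SMAD2 and SMAD4 held none of these letters in the window.
ENOSF1, chr18:712581-712880, minus strand: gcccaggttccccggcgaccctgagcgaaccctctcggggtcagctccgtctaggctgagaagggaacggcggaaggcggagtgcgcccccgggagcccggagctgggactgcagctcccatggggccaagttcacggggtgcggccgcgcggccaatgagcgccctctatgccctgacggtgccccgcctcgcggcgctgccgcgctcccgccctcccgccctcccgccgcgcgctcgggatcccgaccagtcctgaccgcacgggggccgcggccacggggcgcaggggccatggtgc
VAPA, chr18:9913766-9914065, plus strand: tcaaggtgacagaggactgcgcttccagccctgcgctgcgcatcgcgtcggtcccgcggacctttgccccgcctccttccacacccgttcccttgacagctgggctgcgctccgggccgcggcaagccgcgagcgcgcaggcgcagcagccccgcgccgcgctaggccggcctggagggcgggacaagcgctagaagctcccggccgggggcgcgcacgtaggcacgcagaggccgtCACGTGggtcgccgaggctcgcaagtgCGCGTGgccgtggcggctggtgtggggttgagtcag
MYL12A, chr18:3247232-3247531, plus strand: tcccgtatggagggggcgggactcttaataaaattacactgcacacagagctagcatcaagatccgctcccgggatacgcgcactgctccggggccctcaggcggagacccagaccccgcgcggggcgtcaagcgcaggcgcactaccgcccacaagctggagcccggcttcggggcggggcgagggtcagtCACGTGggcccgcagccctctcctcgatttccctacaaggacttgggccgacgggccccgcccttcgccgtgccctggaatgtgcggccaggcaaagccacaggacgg
RNF138, chr18:32091624-32091923, plus strand: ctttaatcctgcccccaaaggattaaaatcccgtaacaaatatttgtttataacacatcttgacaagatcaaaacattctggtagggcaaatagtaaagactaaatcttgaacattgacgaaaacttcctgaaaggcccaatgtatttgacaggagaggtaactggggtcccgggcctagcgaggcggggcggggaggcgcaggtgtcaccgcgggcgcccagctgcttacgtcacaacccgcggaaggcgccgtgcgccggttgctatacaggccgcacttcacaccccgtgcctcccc
MEX3C, chr18:51197632-51197931, minus strand: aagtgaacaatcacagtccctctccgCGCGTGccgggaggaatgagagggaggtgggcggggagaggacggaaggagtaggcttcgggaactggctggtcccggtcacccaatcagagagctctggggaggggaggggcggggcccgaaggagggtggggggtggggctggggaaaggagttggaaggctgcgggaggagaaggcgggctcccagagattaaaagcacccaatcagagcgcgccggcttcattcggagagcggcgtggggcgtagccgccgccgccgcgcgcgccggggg
POLI, chr18:54269324-54269623, plus strand: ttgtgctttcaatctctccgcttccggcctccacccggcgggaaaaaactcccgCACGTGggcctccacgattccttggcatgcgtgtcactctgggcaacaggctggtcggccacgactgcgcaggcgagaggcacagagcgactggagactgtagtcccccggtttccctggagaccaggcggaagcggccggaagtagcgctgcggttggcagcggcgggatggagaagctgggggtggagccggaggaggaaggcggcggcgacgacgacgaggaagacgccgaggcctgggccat
TAF4B, chr18:26226195-26226494, plus strand: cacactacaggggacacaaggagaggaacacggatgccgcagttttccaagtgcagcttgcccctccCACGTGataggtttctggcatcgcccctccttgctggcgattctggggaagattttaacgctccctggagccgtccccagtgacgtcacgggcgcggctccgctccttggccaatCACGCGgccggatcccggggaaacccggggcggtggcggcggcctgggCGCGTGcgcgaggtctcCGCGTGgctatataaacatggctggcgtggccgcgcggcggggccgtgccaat
SMAD2, chr18:47930823-47931122, minus strand: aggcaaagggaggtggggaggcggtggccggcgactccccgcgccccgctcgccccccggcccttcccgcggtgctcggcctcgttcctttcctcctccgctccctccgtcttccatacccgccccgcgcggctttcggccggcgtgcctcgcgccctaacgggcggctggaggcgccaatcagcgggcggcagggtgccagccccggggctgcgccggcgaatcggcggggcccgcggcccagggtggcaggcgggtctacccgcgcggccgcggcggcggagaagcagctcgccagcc
SMAD4, chr18:51029963-51030262, plus strand: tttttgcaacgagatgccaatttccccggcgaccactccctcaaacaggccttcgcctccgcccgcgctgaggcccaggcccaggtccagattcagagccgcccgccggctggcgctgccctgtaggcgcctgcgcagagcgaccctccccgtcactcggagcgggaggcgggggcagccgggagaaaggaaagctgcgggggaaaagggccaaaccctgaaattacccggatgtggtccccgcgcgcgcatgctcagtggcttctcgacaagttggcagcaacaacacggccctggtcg

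The short arm held more than its share of peaks for its length. Peaks numbered 14.4 per Mb on the short arm (exact Poisson interval 12.7 to 16.3, 18 Mb) and 6.27 per Mb on the long arm (5.66 to 6.92, 62.2 Mb, to the last annotated gene end). The ratio was 2.31 (1.96 to 2.70). Coding genes were also denser on the short arm, with 70 against 200 or 3.89 against 3.21 per Mb, a ratio of 1.21. Per coding gene there were 3.71 peaks on the short arm and 1.95 on the long arm. Over the 22 other chromosomes this ranged from 1.04 on X to 4.97 on chromosome 8, with a median of 2.22. The long arm was thinly covered by length: of the other chromosomes, X alone, at 5.67 per Mb, had fewer peaks per Mb.

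Peaks away from gene ends made up most of this excess. A summit was counted at a gene end when an annotated end of a protein-coding gene, 5′ or 3′, was no more than 1 kb away, since most but not all genes have a listed strand. Of the 650 summits 136 were so placed (20.9%), against 23.7% in the whole list. The share was 12.7% on the short arm (33 summits, Wilson interval 9.18 to 17.3) and 26.4% on the long arm (103 summits, 22.3 to 31.0), a difference of -13.7 percentage points (Newcombe interval -19.5 to -7.54). Per Mb, gene-end peaks numbered 1.83 and 1.65, with a ratio of 1.11 (0.725 to 1.65) that did not differ from 1 beyond counting error. The remaining summits stood at 12.6 per Mb on the short arm and 4.61 per Mb on the long arm, a ratio of 2.74 (2.29 to 3.27). A low share at gene ends was not confined to the short arm. Of the 22 other chromosomes, taken whole, chromosomes 8 (9.64%) and 13 (10.99%) had a lower share and 20 a higher one. Those 2 also held more summits away from gene ends per coding gene, 4.495 and 4.12 against 3.24 on the short arm, and 20 held fewer.

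The largest class of those other summits, on both arms, lay inside genes. On the short arm 107 (41.2%) were inside a coding gene, 60 (23.1%) between genes within 50 kb of a coding gene, and 38 (14.6%) farther than that. On the long arm the counts were 147 (37.7%), 57 (14.6%) and 42 (10.8%). A further 9 and 19 summits lay at another listed start of a coding gene, and 13 and 22 at a non-coding gene. Median fold was lowest in the class farthest from coding genes, at 2.89 and 3.33, and highest at gene ends on both arms. That lowest class takes in the peaks of high control level and low fold near the split, described below. They made up 12 of its 38 summits on the short arm and 8 of its 42 on the long arm.

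**Figure D1:**
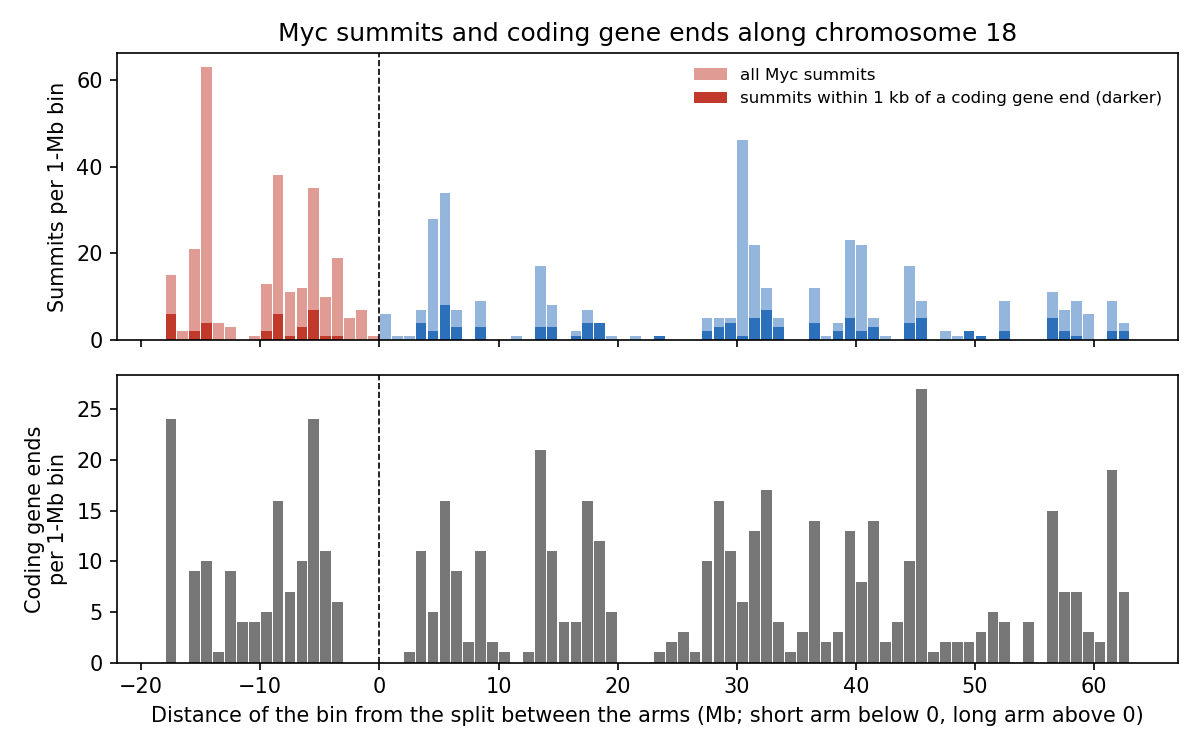
Myc summits per 1-Mb bin of chromosome 18 (upper panel, darker bars for those within 1 kb of a coding gene end) and coding gene ends per bin (lower panel), against distance from the split between the arms in Mb. The tallest bar, 63 summits, lies on the short arm and the tallest of the long arm holds 46; 19 of the 63 long-arm bins are empty.

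Peaks were gathered in few stretches of the chromosome. On the short arm the 5 densest of 18 bins of 1 Mb held 67.7% of the peaks, the median bin held 10.5 and 1 was empty. On the long arm the 5 densest of 63 bins held 39.2%, the median was 2 and 19 (30.2%) were empty. Summits per bin went with coding gene ends per bin (Spearman 0.71 over 18 bins and 0.74 over 63, a description of bins that share 1 list).

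The densest bin, from 3 to 4 Mb, held 63 summits, of which 4 lay at gene ends. It takes in LPIN2, a phosphatidate phosphatase of fat synthesis, the myosin light chain genes MYL12A and MYL12B, the muscle gene MYOM1, TGIF1, a repressor of SMAD targets, and part of DLGAP1, a scaffold of synapses. Bins at least as full numbered 113 of the 2525 bins with any summit over all chromosomes (4.48%), 22 of them on chromosome 8. DLGAP1 alone held 32 summits along its 959 kb, more than any other coding gene of chromosome 18, with folds of 2.29 to 14.3. This count is not adjusted for gene length. None of them lay within 1 kb of an end of DLGAP1 itself. The highest, at 3603408, lay 329 bp from a listed start of DLGAP1-AS2, a non-coding gene inside it.

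Next on the short arm came the bins from 9 to 10 Mb with 38 summits, 6 at gene ends, and from 12 to 13 Mb with 35, 7 at gene ends. Genes of the former include ANKRD12, NDUFV2, PPP4R1, RAB31, TWSG1, TXNDC2 and VAPA, and RAB31, a small GTPase of vesicle traffic, held 10 summits inside. The latter spans 13 coding genes, of which 8 had a peak at an end: AFG3L2, CEP192, CEP76, IMPA2, PRELID3A, PSMG2, PTPN2 and SEH1L.

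The densest bin of the long arm, from 48 to 49 Mb, was of another make. It held 46 summits and a single one at a gene end, that of CTIF, a translation factor of the cap-binding complex. Summits lay instead within SMAD7, which had 14 along its 31.1 kb, and within ZBTB7C, a zinc finger gene with 13. CTIF also held 7 inside, counting the one at its end. In the bin from 23 to 24 Mb, by contrast, 8 of 34 summits lay at gene ends and 8 of 9 coding genes had one, among them NPC1, RIOK3, CABLES1 and LAMA3. The bin from 22 to 23 Mb held 28 summits around GATA6 and RBBP8, with 2 at gene ends.

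Long stretches had no peak. The widest, 3.82 Mb between summits at 41955355 and 45774285, spans PIK3C3, RIT2, SYT4, SETBP1, SLC14A2 and SLC14A1. The next, 3.72 Mb from 70424321 to 74148222, spans the synaptic genes CBLN2 and NETO1 and ends at a summit that FBXO15 and TIMM21 share. Another of 2.79 Mb, from 51430505 to 54223531, holds the whole of DCC. On the short arm the widest was 2.65 Mb, between 5295984 and 7950829.

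**Figure D2:**
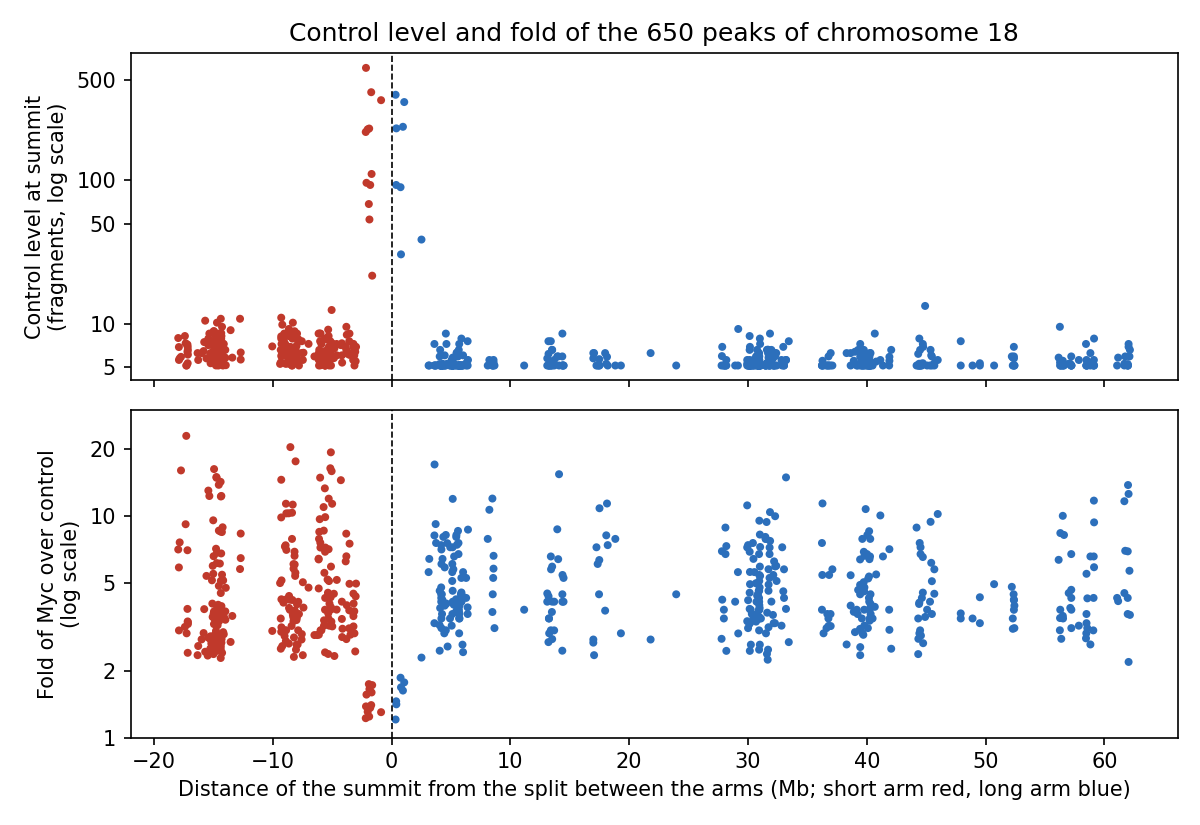
Control level at the summit (upper panel, fragments, log scale) and fold of Myc over control (lower panel, log scale) for each of the 650 peaks, against distance from the split between the arms in Mb. Around the split 20 peaks stand at control levels of 21.6 to 612 and folds of 1.21 to 2.30, and most long-arm peaks sit on the lowest control level.

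Next to the split stood 20 peaks unlike the rest, 12 on the short arm and 8 on the long arm. Their summits ran from 15820271 to 20511888, a span of 4.69 Mb that takes in the centromere and holds no end of a coding gene and no other peak. Their control levels were 21.6 to 612, with a median of 165, whereas no other peak of the chromosome exceeded 13.3. Their pileups were also large, from 38 to 846, so the folds were only 1.21 to 2.30 (median 1.51), and they were narrow, at 220 to 587 bp. Peaks with a control level over 20 numbered 180 in the whole list (0.383%). Without the 20 peaks the arms held 248 and 382, the density ratio was 2.25 and the shares at gene ends were 13.3% and 27.0%.

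The control level itself differed between the arms. It stood at the lowest value in the list, 5.09, at 15 peaks of the short arm (5.77%, Wilson interval 3.53 to 9.30) and at 209 of the long arm (53.6%, 48.6 to 58.5), against 23.7% of all peaks. The difference was -47.8 percentage points (-53.2 to -41.7), and without the 20 peaks near the split the shares were 6.05% and 54.7%. Along the chromosome the change lay between 15 and 20 Mb, a step that held little but those peaks: the share was 4.76%, 3.64% and 9.20% in the 5-Mb steps up to 15 Mb, and 67.5% from 20 to 25 Mb. From 25 to 80 Mb every step with over 1 peak had between 41.8% and 66.7%, and from 80 Mb to the end it was 0 of 4 peaks. In this measure the short arm lay between chromosomes 20 (4.84%) and 15 (6.75%), and the long arm between chromosomes 22 (49.1%) and 21 (53.8%). Summits at gene ends made up 18.2% on chromosome 20 and 19.2% on chromosome 15, above the short arm and below the whole list. They made up 31.9% on chromosome 22 and 23.2% on chromosome 21. Whether the control level and the share at gene ends are linked was not tested. Unequal copies of the arms and other sources of control signal cannot be told apart here.

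Over all peaks the fold differed little between the arms. Its median was 3.77 on the short arm (3.59 to 4.02) and 4.26 on the long arm (4.10 to 4.43), beside 4.107 in the whole list. Median width was 599 and 664.5 bp. Both orders turned when the list was limited to a −log10 q of at least 5, which gave median folds of 5.09 and 5.03 and median widths of 972.5 and 860 bp. Peaks covered 1.38% of the short arm and 0.539% of the long arm, and 31 (11.9%) and 26 (6.67%) were wider than 2 kb.

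At gene ends the short arm stood higher. The median fold there was 10.3 over 33 peaks (order-statistic interval 7.60 to 13.3), against 6.52 over 103 peaks of the long arm (5.66 to 7.21), a ratio of 1.58. Each of the 22 other chromosomes, taken whole, was below the short arm, from 5.25 on chromosome 22 to 8.52 on chromosome 13. The latter value lies within the short arm's interval. No other chromosome was divided by arm. Chromosome 18 as a whole stood at 6.96, with 11 of the others lower and 11 higher. Median gene-end pileup was 89 fragments (60 to 106) on the short arm and 40 (36 to 43) on the long arm, a ratio of 2.225. The median control level was 6.85 and 5.09, a ratio of 1.35. Width went the same way, with medians of 2048 and 1063 bp. Away from gene ends the gaps were small. Median fold was lower on the short arm, 3.61 (3.44 to 3.78) against 3.96 (3.78 to 4.11), as was width, 540 against 594 bp. Median pileup remained higher on the short arm, 27 against 25. Leaving out both the peaks over 2 kb wide and those in the top 1% of folds lowered the medians at gene ends. They came to a fold of 7.03 and a pileup of 48 on the short arm, and to 6.34 and 39 on the long arm. This choice cuts on fold itself, and the short-arm median width at gene ends, 2048 bp, is over its limit. It left 6.58% of 228 short-arm summits and 23.9% of 364 long-arm summits at gene ends. Whether copies of the arms had a part in the difference at gene ends was not tested.

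**Figure D3:**
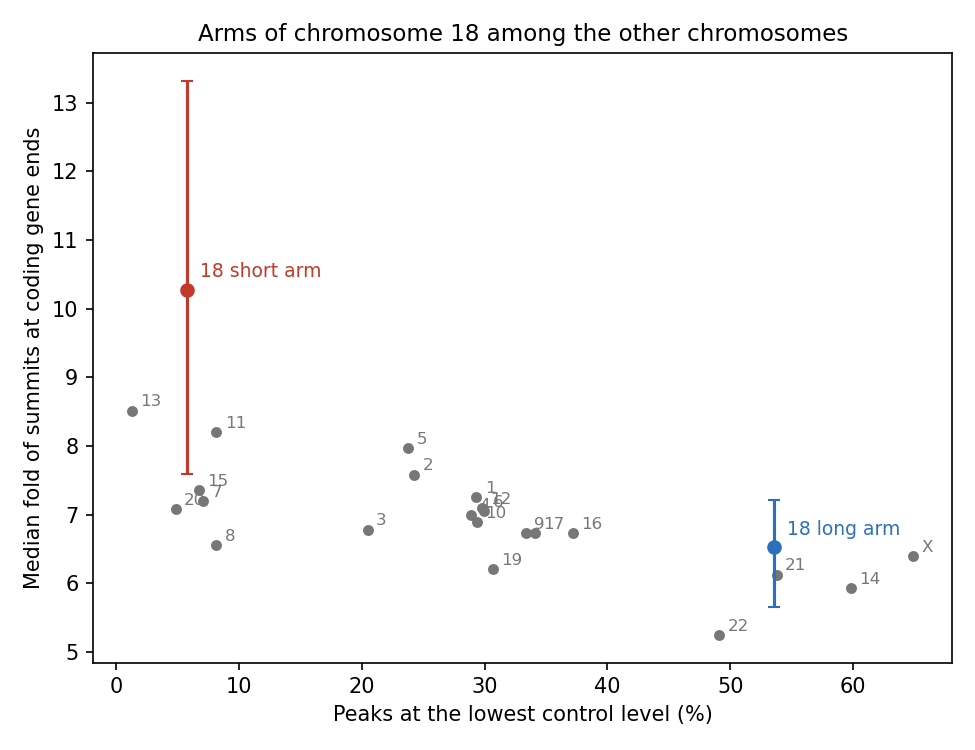
Median fold of summits within 1 kb of a coding gene end against the share of peaks at the lowest control level (percent), for both arms of chromosome 18 (bars, 95% order-statistic intervals of the median) and each other chromosome (grey). The short arm stands at 10.3 and 5.77%, above every other chromosome in fold, and the long arm at 6.52 and 53.6%, beside chromosome 21. The other chromosomes are shown whole and not by arm.

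Myc was at an end of 139 of the 270 coding genes of chromosome 18 (51.5%, Wilson interval 45.5 to 57.4), near the 56.4% of all coding genes. The arms did not differ beyond counting error in this: 34 of 70 genes on the short arm (48.6%, 37.2 to 60.0) and 105 of 200 on the long arm (52.5%, 45.6 to 59.3), a difference of -3.93 points (-17.1 to 9.46). The order turned with wider windows, to 55.7% and 54.5% within 2 kb and 61.4% and 57.5% within 5 kb. The strongest peak of each such gene had a median fold of 11.7 on the short arm (9.18 to 14.5) and 6.73 on the long arm (6.24 to 7.41), beside 7.86 over all coding genes with a peak. Of the short-arm genes with a peak 25 of 34 (73.5%) were above that value, and of the long-arm genes 41 of 105 (39.0%). With the same peaks left out, genes with a peak came to 21.4% on the short arm and 44.5% on the long arm, and their median folds to 7.60 and 6.56.

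The strongest peak lay at the 5′ end of the gene in 31 of 34 short-arm genes, and the other 3 had no listed strand. On the long arm it was at the 5′ end in 90, at the 3′ end in 3 and of unlisted strand in 12. Counting listed starts in place of ends gave 34 of 62 genes (54.8%) and 97 of 172 (56.4%), against 60.1% of all genes in the promoter table, which holds 234 of the 270.

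**Figure D4:**
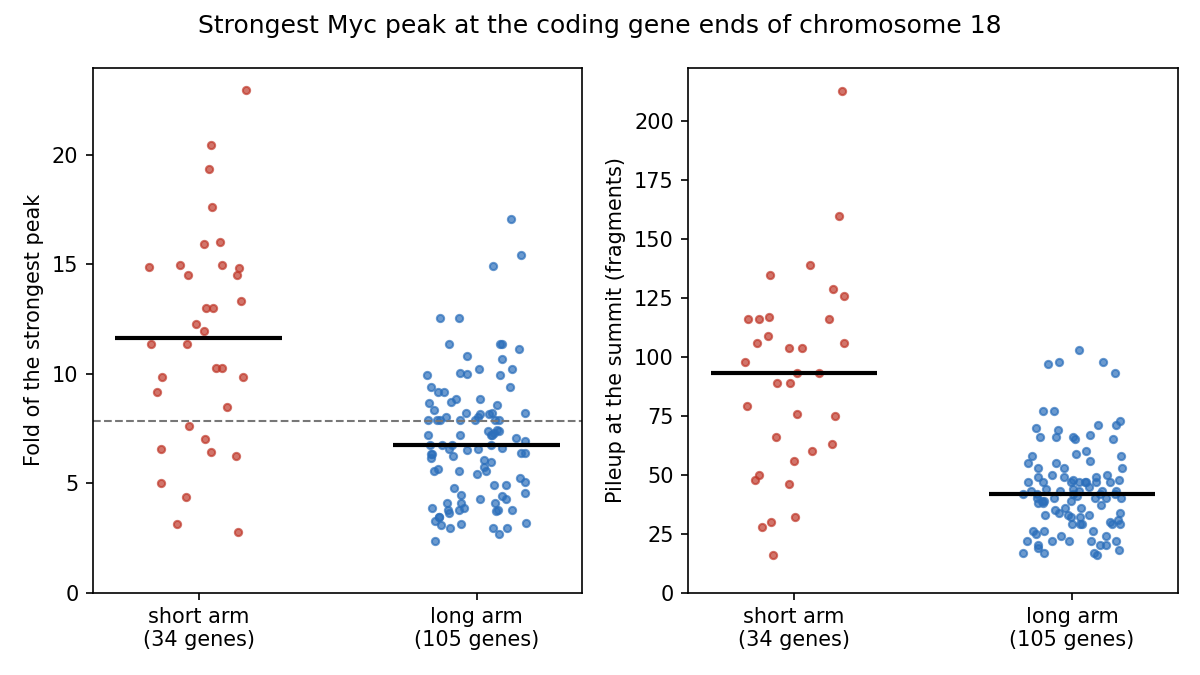
Fold (left) and pileup in fragments (right) of the strongest Myc peak at each coding gene with a peak at an end, 34 genes of the short arm and 105 of the long arm. Points are genes, black lines are medians (11.7 and 6.73 in fold, 93 and 42 in pileup) and the dashed line is 7.86, the median fold over all coding genes with a peak.

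ENOSF1, an enolase-family gene that overlaps the far end of TYMS, had the highest fold of the chromosome, 22.98 (19.3 to 27.1), with 139 fragments at the summit and a control level at the lowest value. Its summit at 712456 lay 174 bp inside the gene. PTPN2, a phosphatase that damps JAK and STAT signalling, had 19.4 (16.2 to 22.98, pileup 129). The intervals of these folds overlap, so their order is within counting error. VAPA, which tethers the endoplasmic reticulum to other membranes, stood at 17.6 (14.8 to 20.8) with a summit 263 bp before its start. THOC1, an mRNA export factor, had 16.0 and SEH1L, a nucleoporin, 15.9. SEH1L had the largest pileup of any gene end of the chromosome, 213, and its control level was 12.4. MYL12A and MYOM1 shared a summit at 3247656 of fold 14.98, 174 bp within MYL12A and 280 bp from the end of MYOM1. IMPA2, an inositol monophosphatase, and MYL12B each had 14.9.

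The strongest gene end of the long arm was that of SNRPD1, a core protein of spliceosomal snRNPs, at 17.1 (13.96 to 20.7, pileup 103). RNF138, a ubiquitin ligase, had 15.4 (12.5 to 18.9) and MEX3C, an RNA-binding ubiquitin ligase, 14.9 (12.1 to 18.2). RBFA, a mitochondrial ribosome assembly factor, and TXNL4A, a spliceosome protein, share a summit near their adjoining 5′ ends at 80034577, of fold 12.6. POLI, a translesion DNA polymerase, stood at 11.4. The zinc transporter gene SLC39A6 and ELP2, of the Elongator complex, shared a summit of 11.4 at 36129655. SMAD2 had 11.2 and INO80C, a subunit of the INO80 chromatin remodeller, 10.8. Of these 10 long-arm genes SNRPD1 alone exceeded 16.0, the value of THOC1 on the short arm.

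**Figure D5:**
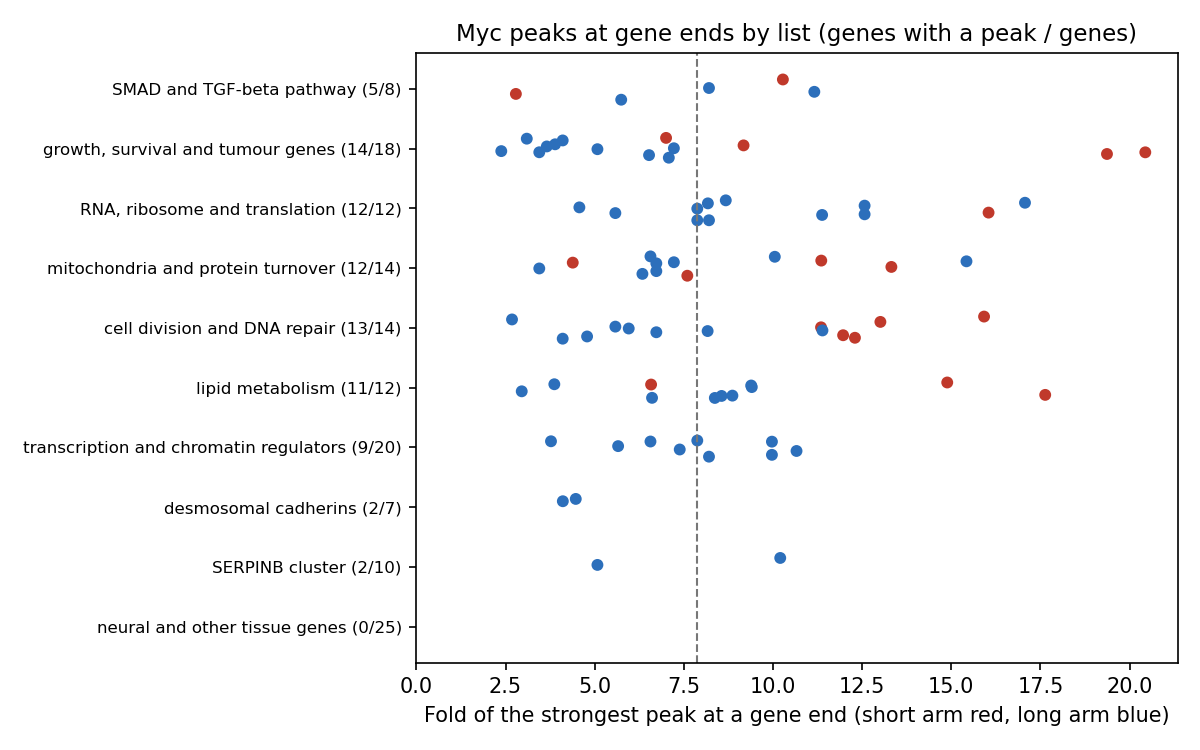
Fold of the strongest Myc peak within 1 kb of an end for the genes of 10 lists on chromosome 18 (short arm red, long arm blue), with genes with a peak over genes in the list in brackets. The dashed line is 7.86, the median over all coding genes with a peak; the RNA list has a peak at 12 of 12 genes and the neural list at 0 of 25.

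Of 8 genes of the SMAD and TGF-β pathway 5 had a peak at an end (62.5%, Wilson interval 30.6 to 86.3), with a median fold of 8.21. The interval takes in both the 51.5% of the chromosome and the 56.4% of all coding genes. SMAD2 was highest at 11.2 (8.69 to 14.1): its summit at 47931104 lay 232 bp before the start, another of 7.21 lay 718 bp inside the gene at 47930154, and the last, of 3.35, lay at 47932874. TWSG1, a BMP-binding secreted protein, had 10.3 (8.16 to 12.8), and NEDD4L, a ubiquitin ligase of SMADs, had 8.21 (6.11 to 10.8) and 17 summits inside. SMAD4, the common partner SMAD, had 5.74 (4.03 to 7.96) from a pileup of 34, at 51029928, 285 bp before the start, and 4.27 at 51030977 inside. The intervals of SMAD2 and SMAD4 did not overlap. TGIF1 had only 2.79 at its annotated end, yet its widest and strongest peak, 6412 bp wide and of fold 13.8, lay inside the gene, 19 bp from another listed start.

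SMAD7, LDLRAD4 and PIAS2 lacked a summit at their ends. SMAD7 nevertheless held 14 summits inside, of folds 2.49 to 6.73, and had another of 9.52 (7.25 to 12.3) 1457 bp beyond its 5′ end. The inside summits at 48942967 and 48949552 lay 160 and 219 bp from other listed starts of SMAD7. PIAS2, a SUMO ligase, had a summit 693 bp from a listed start. LDLRAD4, an inhibitor of SMAD activation, had none closer than 31319 bp to a listed start.

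Genes of growth, survival and tumours had a peak at 14 of 18 (77.8%, 54.8 to 91.0), with a median fold of 5.80, and the interval takes in the 56.4% of all coding genes. PTPN2 and TYMS were among the strongest. The TYMS summit at 658180 lay 527 bp inside the gene, and its fold was 9.18 (7.24 to 11.5; pileup 75, control level 7.28). BCL2, the inhibitor of apoptosis, had a single summit near it, of fold 4.10 (2.69 to 6.02), 813 bp beyond its 5′ end at 63320903, and none inside. PMAIP1, which encodes the pro-apoptotic NOXA, had 7.08 (5.21 to 9.42). DCC had no summit inside, and the nearest was 687632 bp away. PTPRM, RAB31 and MAPK4 had none at an end, and the summits nearest to an end were 203606, 6058 and 88100 bp from it. Inside the gene RAB31 had 10 summits, PTPRM 1 and MAPK4 0.

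In 3 lists of general cell functions the share with a peak had an interval above the 51.5% of the chromosome and the 56.4% of all coding genes. All 10 lists were chosen with earlier results of these data known, so their shares and intervals are a description and not a test. RBFA and TXNL4A, which share a summit, were counted separately. All 12 genes of RNA, ribosome and translation had a peak (100%, 75.8 to 100), with a median fold of 8.44, among them SNRPD1, THOC1, RBFA with TXNL4A, and RPL17, a protein of the large ribosomal subunit, at 7.88. Of 14 genes of mitochondria and protein turnover 12 had one (85.7%, 60.1 to 96.0), median 6.97, led by RNF138, AFG3L2 (13.3, 11.04 to 15.9), a mitochondrial protease, and NDUFV2 (11.4, 9.14 to 13.9), a subunit of respiratory complex I. PSMA8, a testis proteasome subunit, and RNF152 had none. Cell division and DNA repair had 13 of 14 (92.9%, 68.5 to 98.7), median 8.17. SEH1L led, then NDC80 (13.01, 10.7 to 15.7), a kinetochore protein whose summit is shared with METTL4, and SMCHD1 (12.3, 10.2 to 14.7), a chromatin protein of X inactivation. CETN1, a testis centrin, had none.

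Lipid metabolism had a peak at 11 of 12 genes (91.7%, 64.6 to 98.5, against 56.4% of all coding genes), with a median fold of 8.56. VAPA, IMPA2 and KDSR were highest, and KDSR, which makes dihydrosphingosine, had 9.41 (7.36 to 11.8). LIPG, the endothelial lipase, had 9.39 (7.17 to 12.1), NPC1, the lysosomal cholesterol transporter, 8.56 (6.53 to 11.02), and LPIN2 6.58 (4.86 to 8.73). MC4R, a melanocortin receptor of the brain, had none, and the nearest was 316946 bp away. With no untreated library at hand, these values say nothing of the effect of oleic acid.

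Transcription and chromatin regulators had a peak at 9 of 20 genes (45%, 25.8 to 65.8), median 7.88, and the interval takes in both the 51.5% of the chromosome and the 56.4% of all coding genes. TAF4B, a subunit of TFIID, had 10.7 (8.33 to 13.5), and CXXC1 and MBD1, which both read CpG sites, shared a summit of 9.97. GATA6, an endoderm transcription factor, had 7.39 (5.41 to 9.86) 373 bp before its start and 8 summits inside, up to 7.06. TCF4, SETBP1 and ZNF521 had their nearest summits 120977, 705775 and 635056 bp from an end, whereas ZBTB7C, with none at an end, had a summit 47 bp from another listed start.

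Desmosomal cadherins had a peak at 2 of 7 genes (28.6%, 8.22 to 64.1, which takes in the 56.4% of all coding genes), DSC2 (4.47) and DSG2 (4.107). Of the others DSG4 had 2 summits inside, up to 6.56, and DSC1, DSC3, DSG1 and DSG3 had none. The SERPINB cluster of protease inhibitors had 2 of 10 (20%, 5.67 to 51.0, against 51.5% of the chromosome and 56.4% of all), SERPINB8 at 10.2 with a summit shared with HMSD, and SERPINB5 at 5.08. Among 25 neural and other tissue genes, among them the N-cadherin gene CDH2, AQP4, TTR and SYT4, 0 had a peak at an end (Wilson interval 0 to 13.3%, against the same 56.4%). Summits inside these genes numbered 39, 32 of them in DLGAP1, 6 in MBP and 1 in CELF4. MBP, with none at an end, had a summit 770 bp from another listed start.

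Strong peaks also lay away from annotated gene ends. On the short arm the strongest, 16.4 (13.8 to 19.4), was inside PTPN2 at 12838440. It lay 45797 bp from the nearest end of the gene and 2522 bp from a listed start of it. A peak of 16.3 at 3052036 lay between genes, 14771 bp from MYOM1. The peaks in MTCL1, a microtubule protein, at 8707224 (14.6) and in TGIF1 at 3449549 (13.8) lay 309 and 19 bp from other listed starts of those genes. On the long arm the strongest, 13.8 (11.01 to 17.0) at 79988476, lay 87 bp from another listed start of TXNL4A. Peaks within KCTD1 (11.98), CABLES1 (11.9) and MBP (11.7) lay over 6 kb from any listed start. That within CTDP1 (11.7) lay 578 bp from a listed start of CTDP1-DT, a non-coding gene. A listed start of CTDP1 itself had a summit 636 bp away.

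The E-box was looked for in listed promoters of coding genes, 300 bases each, on both strands. CACGTG is its own reverse complement, CACGCG and CGCGTG are each other's, and matches of different motifs may overlap in part. Of 160 promoters of chromosome 18 with a summit within 1 kb of the start, from 131 genes, 18 held CACGTG (11.3%, Wilson interval 7.24 to 17.1), near the 10.1% of all such promoters. Of 205 without a summit 9 held it (4.39%, 2.33 to 8.13), beside 6.16% of all such promoters and 8.34% of promoters overall. The form CACGCG or CGCGTG was in 27 (16.9%) with and 13 (6.34%) without a summit, against 18.8% and 8.63% of all such promoters and 14.3% overall. The AP-1 site TGACTCA or TGAGTCA, looked for as a contrast, was in 6 (3.75%) and 9 (4.39%), against 3.2% and 5.01%, and 4.01% overall. By arm, CACGTG was in 5 of 44 short-arm and 13 of 116 long-arm promoters with a summit. Several starts of a gene can overlap, so promoters are not independent, and a match is a description of letters and not a site. The promoters with a summit and CACGTG belonged to genes such as LPIN2, VAPA and MYL12A on the short arm, and OSBPL1A, TAF4B, POLI and SEC11C on the long arm. The strongest peak of the chromosome, at ENOSF1, had no CACGTG in its listed promoter.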

How the data were processed

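The 7 libraries (3 Myc, 3 IgG, 1 input, by title) were processed by the submitters. The submitters' processing notes name MACS2 2.1.2 (a peak caller), BWA 0.7.15 (an aligner) and the build hg38, with SAMtools 1.5, Picard 2.19.0, deepTools 3.5.0, HOMER 4.11.1 and FastQC 0.11.7 beside them, and give no role for any. The control, the way libraries were pooled, the settings and the depth of each library are, for this list, not given in the sources used here. Pileups stand for the depth behind each peak.

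The deposited peak list gives the authors' fold of Myc over control (a ratio), and at each summit the −log10 p-value and −log10 q-value. The score column of the deposited list was not used in a result. The other deposited columns hold peak positions and the summit offset, counted by the authors from 0 and given here from 1. The lowest −log10 q was 1.30.

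From these values a whole-number pileup and its control level were solved, as MACS2 adds 1 to both and takes a Poisson tail. For all 47016 nuclear peaks the solved pair returned the deposited −log10 p-value to 0.001. The step was also run on data simulated from the same formulas, which can check the solving and not whether MACS2 used them. The lowest control level was taken within 0.01 of 5.09. Positions of 20037 coding genes and promoters came from RefSeq (GRCh38.p14). Python 3.11.15 with pandas 2.3.3, numpy 2.4.6, scipy 1.17.1 and matplotlib 3.10.9 was used.

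Shares have Wilson, differences of shares Newcombe, counts and ratios of counts exact, folds exact Poisson (control level held fixed) and medians order-statistic intervals, all at 95%. They cover counting error only, and peaks are not replicates. The members, the 10 lists and the choices made here were fixed with earlier results of these data known. Named were the 10 genes of highest fold at an end on each arm, the 3 highest and up to 4 without a peak of each list, every summit at SMAD2, SMAD4, SMAD7, DCC, TYMS and BCL2, the genes at the 5 strongest peaks of each arm away from ends, and genes of the 3 densest bins of each arm. An item that these rules would name is not reported here. Other genes were chosen after their values were seen. Alternatives were the peak threshold, wide or very strong peaks, the window, listed starts, the split, the bin size and the peak centre.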

Additional observations from a re-analysis of the deposited data

How the results depend on the processing

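No paired analysis was possible because the list holds no value per library. Over 24 results and 13 settings, 145 of 167 alternative values stayed near the value reported and 22 did not. Near means within its counting interval, or, for the counts of peaks on each arm, within a factor of 1.5: these ranged from 176 to 268 on the short arm and from 289 to 403 on the long arm. The order of the arms turned in median fold and median width at a −log10 q of at least 5, and in the share of genes with a peak with windows of 2 kb (55.7% and 54.5%) and 5 kb. The ratio of peaks per Mb between the arms was 1.98 with the split at 21 Mb and 2.67 with it at 15 Mb, and lay between these in all other settings. The difference in the share at gene ends was -17.3 to -11.2 points in all settings run. With both the peaks over 2 kb wide and those of the top 1% of folds (over 18.7) left out, the median fold of short-arm genes with a peak was 7.60, and genes with a peak were 21.4% and 44.5% on the short and long arm. In that setting 6.58% of short-arm summits lay at gene ends, with a median fold of 7.03 and a median pileup of 48. With windows of 2 kb the shares at gene ends were 17.3% and 31.3% on the short and long arm, and with 5 kb 22.7% and 38.5%, with a peak at 61.4% of short-arm genes. At a −log10 q of at least 5 these shares were 18.2% and 31.8%, median folds 5.09 and 5.03, median pileups 39 and 33 and median widths 972.5 and 860 bp. In bins of 500 kb 45.6% of long-arm bins were empty, and in bins of 2 Mb 9.38% on the long arm and 0% on the short arm, as bin size alone would move such a share. For the other moved values the cause was not tested. Leaving out the 20 peaks of control level over 20, a choice made after seeing the data, left every value near in that sense. No 2 peaks shared an interval (0 found), so taking 1 peak per interval gave the same list. Pileups limit all of this: a peak of 14 fragments is the weakest in the list, and weaker binding was not detectable at this depth.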

Other observations

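Of 31 annotated microRNA hairpins of chromosome 18, 3 had a summit within 1 kb: MIR6718 at 156 bp from a summit of fold 3.501, MIR4741 at 221 bp from one of 7.22, and MIR1539 at 281 bp from one of 7.88. MIR4741 lies within RBBP8, a DNA repair gene, and MIR1539 just outside the 5′ end of C18orf32. The liver microRNA MIR122 lay 34123 bp from its nearest summit. The muscle microRNAs MIR133A1 and MIR1-2 lay 84782 and 88088 bp from theirs.

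A total of 12 genes had no summit at an annotated end but one within 1 kb of another listed start: ZBTB14, PPP4R1, GNAL, TUBB6, SPIRE1, PIAS2, ZBTB7C, SMAD7, MRO, RAB27B, MBP and CTDP1. GNAL encodes a G protein subunit of olfactory and striatal neurons, and its summit lay 348 bp from a start whose listed promoter holds CACGTG. ZBTB14, a zinc finger repressor, had its summit 36 bp from a listed start.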
